A study of Mus musculus with 10 samples.

Results

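Nucleotide excision repair and gap filling genes comprised 37 genes, chosen by symbol from the core of the pathway, of 36586 genes in the expression tables, and each matched 1 entry. They encode the damage-binding and ubiquitin ligase factors, the TFIIH complex, the verification and incision factors, replication protein A, the sliding clamp and its loader, the gap-filling polymerases and the ligases. XPC, RAD23B and CETN2, the complex that opens global repair, were not among the 37 and were followed as other genes of the pathway. The members were measured in mouse embryonic stem cells in 2 ways, as RNA level and as RAD23B-bound regions at the gene.

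Nucleotide excision repair removes bulky, helix-distorting lesions such as those left by ultraviolet light. The XPC complex or DDB1 and DDB2 find damage across the genome, while CSA and CSB act where RNA polymerase stalls. TFIIH then unwinds the DNA, XPA and RPA hold and check the open strands, ERCC1 with XPF and XPG cut on either side, and the gap is filled and sealed by proteins that also serve DNA replication. In embryonic stem cells, which divide fast, these replication proteins are abundant, and the XPC complex also serves there as a coactivator of OCT4 and SOX2.

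RNA was sequenced from 4 lines of JM8.N4 cells, a mouse embryonic stem cell line, with 1 library each: Rad23b-/- cells, Rad23b-/-Xpc KD1 cells, Rad23b-/-Xpc KD2 cells and wild-type cells. KD1 and KD2 were independent hairpins against Xpc in cells that also lacked Rad23b, and are called knockdown 1 and knockdown 2 here. The libraries held poly-A RNA read as single 50 bp ends in 1 lane. Chromatin immunoprecipitation used guinea pig antibodies against a RAD23B peptide or normal IgG, in 1 library each from Xpc-/- cells and 2 each from wild-type D3 cells, another mouse embryonic stem cell line. The labels do not say how many clones the mutant lines represent, nor whether the 2 wild-type ChIP replicates came from separate cultures.

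The targeted genes were read first. Rad23b stood at 43.9 RPKM (reads scaled by transcript length and library size) in the Rad23b-null library, 35.9 in knockdown 1 and 52.5 in knockdown 2, against 229 in wild type. Xpc stood at 8.34 RPKM in the Rad23b-null library, 0.915 in knockdown 1 and 0.895 in knockdown 2, against 8.73 in wild type. The 8 stem cell markers summed to 4350, 6103 and 5078 RPKM in Rad23b-null, knockdown 1 and knockdown 2 cells, against 5972 in wild type. Among them Nanog was at 38.6%, 48.6% and 41.6% of its wild-type level and Esrrb at 31.9%, 48.9% and 37.9%, both below the rest of the 8 in each line. Tdgf1 was at 106%, 150% and 122% and Zfp42 at 105%, 97.6% and 96.4%. Fibroblast markers, which would mark feeder cells, summed to 1.80 to 2.54 RPKM in the mutants and 1.72 in wild type; 7 of 8 were below 1 RPKM in each mutant and 8 in wild type, and Postn was at 0 in all 4 libraries. Mesoderm markers summed to 2.19 to 3.91 RPKM in the mutants and 1.19 in wild type, of which Hand1 was 3.31, 3.48 and 1.70 RPKM in Rad23b-null, knockdown 1 and knockdown 2 cells and 0.329 in wild type. The other 3 mesoderm markers summed to 0.509, 0.429 and 0.486 RPKM in the mutants and 0.862 in wild type, and the 5 primitive endoderm markers to 4.81 to 5.71 RPKM in the mutants and 4.80 in wild type. That endoderm sum holds opposite moves. Gata4, at 1.26 RPKM in wild type, was at 240%, 221% and 217% of that level. Dab2, at 2.16 RPKM in wild type, was at 56.6%, 41.5% and 57.1%. The other primitive endoderm markers were below 1 RPKM in every library. The 3 matched neural markers summed to 30.0 to 32.4 RPKM in the mutants and 50.8 in wild type, most of it Tubb3, listed on a locus merged from 156 genes, while Pax6 was at 151%, 135% and 210% of its wild-type level. The part of these shifts in the repair genes' values was not tested.

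Promoter sequences are shown for the 5 members whose RNA was lower by at least 0.5 on the log2 scale in all 3 mutant lines and for Ercc5, the 1 member at least 1.5-fold higher in any of them. Each runs from 250 bases before to 50 bases after the annotated start in the direction of transcription, from RefSeq on GRCm38.p6. Capitals mark matches, on either strand, to ATGCAAAT (the octamer of OCT4), ATTGTT (a SOX2 core), GCATGCGC (NRF1), CCGGAAG (ETS factors), CCAAT (NF-Y), GGGCGG (SP1) or TGACGTCA (a cyclic AMP element).
Pold2 (chr11:5878207-5878506, minus strand): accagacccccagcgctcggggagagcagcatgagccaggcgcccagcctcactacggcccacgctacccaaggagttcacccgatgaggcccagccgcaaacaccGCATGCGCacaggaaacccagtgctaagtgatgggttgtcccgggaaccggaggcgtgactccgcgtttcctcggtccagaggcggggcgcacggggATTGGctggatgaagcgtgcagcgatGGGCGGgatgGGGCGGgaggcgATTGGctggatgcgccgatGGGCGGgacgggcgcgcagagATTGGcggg
Lig3 (chr11:82780859-82781158, plus strand): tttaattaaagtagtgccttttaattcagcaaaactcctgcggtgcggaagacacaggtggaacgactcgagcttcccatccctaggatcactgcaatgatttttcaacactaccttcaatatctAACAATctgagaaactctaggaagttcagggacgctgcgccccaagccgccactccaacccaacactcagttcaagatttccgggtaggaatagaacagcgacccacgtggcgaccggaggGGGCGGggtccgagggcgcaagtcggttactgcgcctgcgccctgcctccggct
Rpa1 (chr11:75348334-75348633, minus strand): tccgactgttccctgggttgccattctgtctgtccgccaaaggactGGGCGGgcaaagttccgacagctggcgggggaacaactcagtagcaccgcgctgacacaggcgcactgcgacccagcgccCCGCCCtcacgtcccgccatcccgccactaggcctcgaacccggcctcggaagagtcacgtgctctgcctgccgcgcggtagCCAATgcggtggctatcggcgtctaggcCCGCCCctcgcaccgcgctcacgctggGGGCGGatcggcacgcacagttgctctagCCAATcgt
Xpa (chr4:46196262-46196561, minus strand): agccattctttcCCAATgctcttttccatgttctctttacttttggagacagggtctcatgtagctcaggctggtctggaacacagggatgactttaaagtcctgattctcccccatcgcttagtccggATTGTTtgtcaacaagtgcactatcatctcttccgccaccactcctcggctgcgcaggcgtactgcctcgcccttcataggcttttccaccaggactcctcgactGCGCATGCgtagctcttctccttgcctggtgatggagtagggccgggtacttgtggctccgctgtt
Gtf2h2 (chr13:100492345-100492644, minus strand): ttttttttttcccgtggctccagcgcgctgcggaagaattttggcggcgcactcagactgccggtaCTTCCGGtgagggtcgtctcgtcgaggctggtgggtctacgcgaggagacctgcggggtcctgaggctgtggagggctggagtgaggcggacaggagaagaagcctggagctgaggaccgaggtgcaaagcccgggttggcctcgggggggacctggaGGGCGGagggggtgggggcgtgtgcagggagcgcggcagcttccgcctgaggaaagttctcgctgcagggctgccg
Ercc5 (chr1:44147494-44147793, plus strand): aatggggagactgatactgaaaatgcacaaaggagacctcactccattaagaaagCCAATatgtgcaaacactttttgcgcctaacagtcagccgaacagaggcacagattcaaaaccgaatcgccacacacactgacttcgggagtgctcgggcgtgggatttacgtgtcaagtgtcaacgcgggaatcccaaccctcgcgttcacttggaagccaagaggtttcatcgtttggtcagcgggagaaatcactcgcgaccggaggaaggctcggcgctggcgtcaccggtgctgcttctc

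The Pold2 promoter held 1 NRF1, 3 NF-Y and 3 SP1 matches, and a further RefSeq start of Pold2 held none. Rpa1 held 4 SP1 and 2 NF-Y matches, Gtf2h2 1 ETS and 1 SP1 match, and Ercc5 a single NF-Y match. Among the 36 RefSeq promoters of the 32 members matched by symbol, none held the octamer, which 1.74% of all 32817 promoters held, and 2 held the SOX2 core (5.56%, against 10.7% of all promoters). These 2 were Xpa and Lig3. The SP1 letters were in 24 member promoters (66.7%, against 35.6%), the ETS letters in 9 (25%, against 8.86%), the NRF1 letters in 5 (13.9%, against 2.71%) and the NF-Y letters in 15 (41.7%, against 37.4%). The cyclic AMP element was in 0 (1.79% of all). Median GC content was 63.2% in member promoters and 52.7% in all promoters. The part of this difference in the shares of GC-rich and AT-rich letters was not tested. A match describes letters in this window and not a bound site.

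In wild-type cells the 37 members ran from 4.72 RPKM for Ercc6 to 402 RPKM for Pcna, with a median of 40.1. All 37 passed the minimum of 1 RPKM in every comparison. In the mutants most were slightly lower than in wild type. Each mutant level was set against wild type as a log2 ratio of RPKM + 1, and this was below 0 for 32 members with Rad23b-null (86.5%, against 62.9% of the 15040 genes tested), 32 with knockdown 1 (86.5%, against 63.8%) and 30 with knockdown 2 (81.1%, against 62.7%). The median log2 ratio of the members was -0.32, -0.21 and -0.30, and that of all genes -0.16, -0.14 and -0.14. Genes of at least 5 RPKM, which 36 of the members were, had medians of -0.24, -0.20 and -0.21, near the members' own in knockdown 1, and 70.9%, 71.3% and 70.2% of them were below 0. Against the median of all genes in place of 0, 26, 25 and 27 of the 37 members were lower, where 0.5 of all genes are lower by construction. The 3 comparisons share the wild-type library, so a high wild-type value lowers all 3 ratios together; 28 members were below 0 in all 3 (75.7%, against 53.7% of genes). Since each group was 1 library, no difference in RNA level could be tested. The samples are whole cultures, in which fewer cells expressing a gene and less RNA per cell cannot be told apart.

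**Figure D1:**
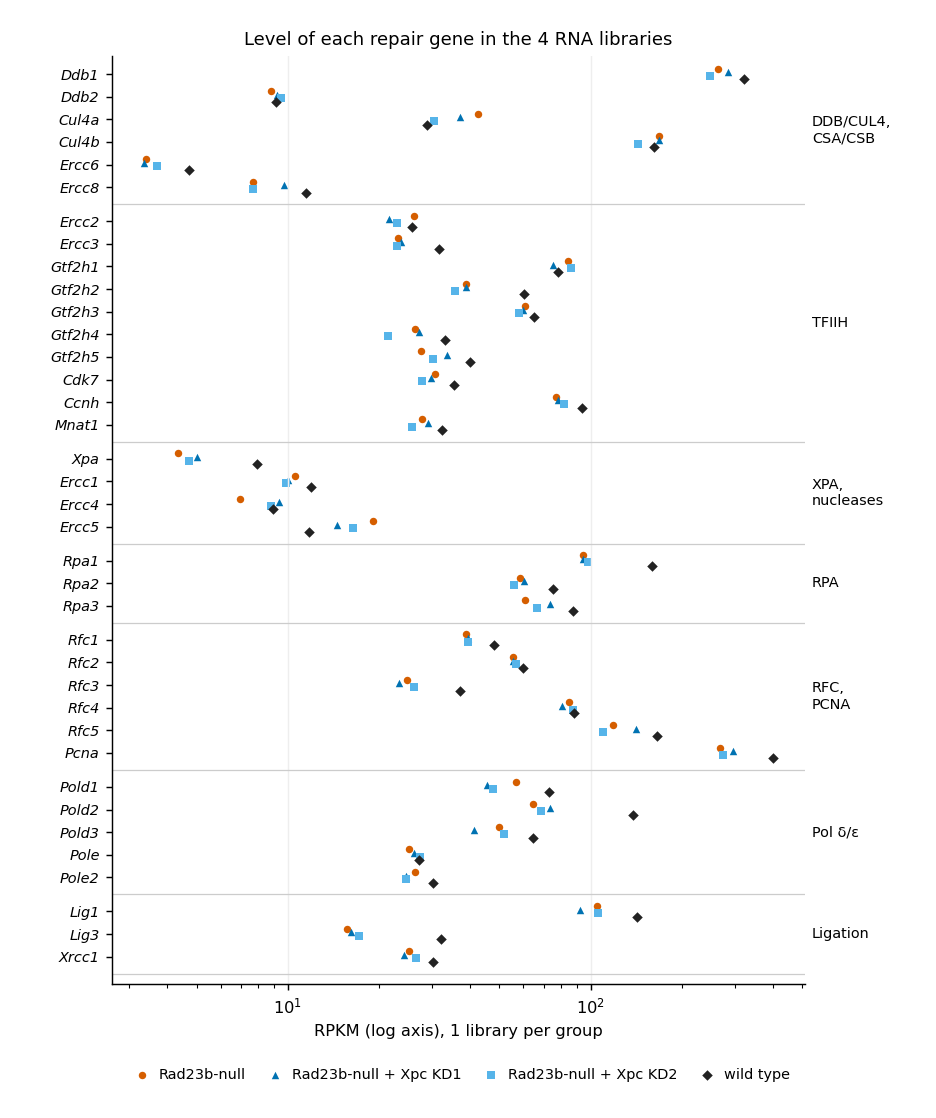
RPKM of each of the 37 genes (log axis), grouped by role, in Rad23b-null (circles), knockdown 1 (triangles), knockdown 2 (squares) and wild-type cells (diamonds), 1 library each. The wild-type symbol lies to the right for most genes, and the 4 levels of a gene lie close together beside the range from 4.72 to 402 RPKM between genes.

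Few members were far from wild type. At 2-fold, 1 member was lower with loss of Rad23b alone, Pold2 (2.7% of members, against 4.61% of genes), and 0 in knockdown 1 (3.4% of genes) and knockdown 2 (3.6% of genes). None was 2-fold higher, where 4.74%, 3.95% and 3.93% of genes were. At 1.5-fold, 6, 7 and 5 members were lower in the 3 lines (16.2%, 18.9% and 13.5%), close to the 16.4%, 12.4% and 13.7% of all genes, and 1, 0 and 0 were higher, against 10.8%, 9.1% and 9.61%. Among genes of at least 5 RPKM, 19.6%, 14.5% and 16.1% were 1.5-fold lower and 7.99%, 6.7% and 7.24% higher. The share of members 1.5-fold lower was thus near that of other genes. A ratio of at most -0.5 in all 3 lines was held by 5 members (13.5%, against 10.9% of genes) and one of at least 0.5 in all 3 by 0 (6.28% of genes). In the authors' deposited table the p-values of the members began at 0.287 (Rfc3) for Rad23b-null, 0.243 (Rpa1) for knockdown 1 and 0.318 (Pold2) for knockdown 2, and rest on no replicates.

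**Figure D2:**
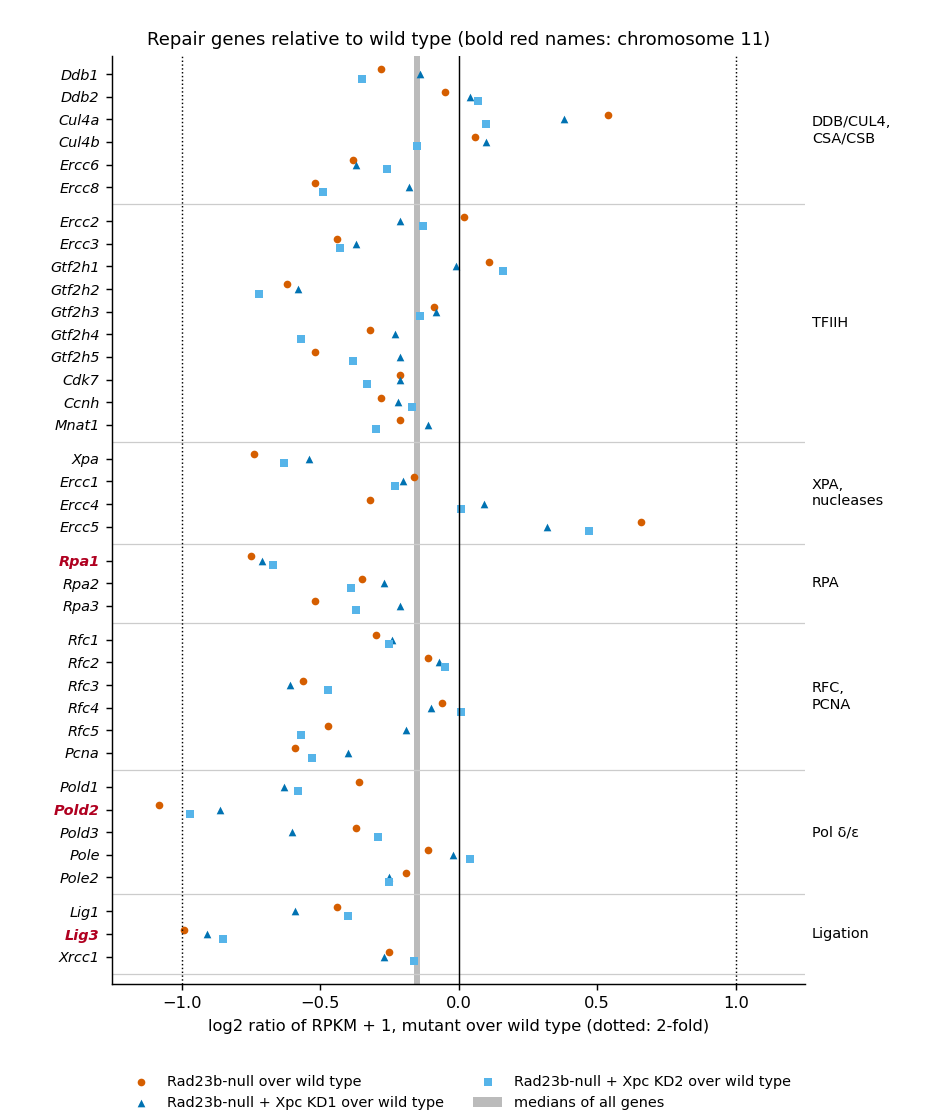
Log2 ratio of RPKM + 1 to wild type for each gene in Rad23b-null (circles), knockdown 1 (triangles) and knockdown 2 (squares) cells, with the medians of all genes as a grey band and 2-fold as dotted lines. The 3 genes on chromosome 11, in bold red, lie between -1.08 and -0.67, and Cul4a and Ercc5 lie above 0 in all 3 lines.

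The damage-recognition group had medians of -0.17, -0.05 and -0.20 over its 6 genes, and none was 1.5-fold apart from wild type. Ddb1, the adaptor of the CUL4 ubiquitin ligase and the most abundant of the group, stood at 265, 284 and 248 RPKM in Rad23b-null, knockdown 1 and knockdown 2 cells, against 321 in wild type. Ercc6, which encodes the CSB translocase that acts at stalled polymerase, stood at 3.41, 3.35 and 3.71 RPKM in the same 3 lines, against 4.72 in wild type. Both were lower in every mutant line, with log2 ratios of -0.28, -0.14 and -0.35 for Ddb1 and of -0.38, -0.37 and -0.26 for Ercc6. Ercc8, the CSA protein of the same ligase family, had 7.69, 9.75 and 7.70 RPKM in Rad23b-null, knockdown 1 and knockdown 2 cells, against 11.5 RPKM in wild type. The damage sensor Ddb2 lay within 0.07 of wild type on the log2 scale in all 3 lines. The scaffolds differed from each other: Cul4b stayed between -0.15 and 0.10, while Cul4a, singled out after its values were seen, had 42.6, 36.96 and 30.5 RPKM in Rad23b-null, knockdown 1 and knockdown 2 cells, against 28.9 RPKM in wild type. Its log2 ratios were 0.54, 0.38 and 0.10, so that knockdown 2 lay near wild type and the other lines above it.

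The genes of TFIIH, the complex of 10 subunits that serves both transcription initiation and repair, had medians of -0.24, -0.21 and -0.31. Those of all genes of at least 5 RPKM, as every TFIIH gene was, were -0.24, -0.20 and -0.21. Gtf2h2, which encodes the p44 subunit that stimulates the XPD helicase, differed most. It had 38.7, 38.9 and 35.6 RPKM in Rad23b-null, knockdown 1 and knockdown 2 cells, against 60.2 RPKM in wild type. All 3 mutant values lay close together and below the wild-type value, with log2 ratios of -0.62, -0.58 and -0.72. Low ratios in all 3 lines were among the reasons for naming this gene, and the 3 ratios share the wild-type library. Their agreement is thus no independent support. Ercc2, the XPD helicase itself and the lowest TFIIH gene in wild type, had 26.1, 21.5 and 23.0 RPKM in the 3 lines, against 25.7 RPKM in wild type. Ccnh, the cyclin of the kinase module and the most abundant TFIIH gene, had 77.0, 78.1 and 81.5 RPKM, against 93.5 RPKM in wild type. The other 7 subunit genes, among them the XPB helicase Ercc3 and the kinase Cdk7, had log2 ratios from -0.57 to 0.16 over the 3 comparisons. TFIIH genes differed among themselves: Gtf2h1, the p62 subunit, named after its values were seen, was at 0.11, -0.01 and 0.16 while Gtf2h2 was at 60.2% to 66.3% of its wild-type level.

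The 4 verification and incision genes had a median of 10.4 RPKM in wild type, the lowest of the 7 role groups, and differed in direction. Xpa, the verification factor, had 4.35, 5.02 and 4.71 RPKM in Rad23b-null, knockdown 1 and knockdown 2 cells, against 7.94 RPKM in wild type, with log2 ratios of -0.74, -0.54 and -0.63. It is listed on a locus merged from 6 genes. The authors' deposited p-values for Xpa, which rest on no replicates, were 0.988, 0.989 and 0.988. Ercc1, the partner of the XPF nuclease, had 10.6, 10.0 and 9.85 RPKM, against 11.9 RPKM in wild type. Ercc4, the XPF nuclease, had 6.98, 9.34 and 8.83 RPKM, against 8.94 RPKM in wild type. For Xpa the 3 mutant values lay together below wild type, while for Ercc4 only the Rad23b-null value was apart, with log2 ratios of -0.32, 0.09 and 0.01. Xpa was named in part for low ratios in all 3 lines, which share the wild-type library. Ercc5, the XPG nuclease that cuts on the 3′ side, went the other way and was singled out after its values were seen. It had 19.2, 14.6 and 16.4 RPKM in Rad23b-null, knockdown 1 and knockdown 2 cells, against 11.8 RPKM in wild type, and its log2 ratios were 0.66, 0.32 and 0.47.

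All 3 genes of replication protein A, the single-strand binding trimer, were lower in all 3 lines, as were 53.7% of all genes tested. Their medians were -0.52, -0.27 and -0.39, against -0.24, -0.20 and -0.21 for genes of at least 5 RPKM. Rpa1, the largest subunit of the trimer, lies on chromosome 11, whose genes were lower as a whole. It had 94.6, 94.6 and 98.0 RPKM in Rad23b-null, knockdown 1 and knockdown 2 cells, against 159 RPKM in wild type. Rpa2 had 58.7, 60.3 and 56.1 RPKM, against 74.9 RPKM in wild type. The mutant values of each gene lay closer to one another than to wild type, with log2 ratios of -0.75, -0.71 and -0.67 for Rpa1 and of -0.35, -0.27 and -0.39 for Rpa2. These ratios share the wild-type library, and Rpa1 was named in part for low ratios in all 3 lines.

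Among the clamp and its loader, Pcna, the sliding clamp and the most abundant member, had 268, 296 and 274 RPKM in Rad23b-null, knockdown 1 and knockdown 2 cells, against 402 RPKM in wild type. Its log2 ratios were -0.59, -0.40 and -0.53. Rfc3, a small subunit of the loader RFC, had 24.7, 23.3 and 26.1 RPKM, against 37.1 RPKM in wild type, with log2 ratios of -0.56, -0.61 and -0.47. By contrast Rfc2 and Rfc4, subunits of the same complex, were near wild type. Rfc2 had 55.4, 55.6 and 56.7 RPKM in the 3 lines, against 59.8 RPKM in wild type, and Rfc4 had 84.8, 80.4 and 87.5 RPKM, against 88.3 RPKM in wild type. The 5 loader subunits thus spanned -0.61 to 0.01 within 1 complex.

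Pold2, the second subunit of DNA polymerase delta, was the lowest of the 37 in Rad23b-null cells and in knockdown 2. It had 64.6, 73.2 and 68.5 RPKM in Rad23b-null, knockdown 1 and knockdown 2 cells, against 138 RPKM in wild type, with log2 ratios of -1.08, -0.86 and -0.97. The catalytic subunit Pold1 and the accessory subunit Pold3 ranged from -0.63 to -0.29 over the 3 comparisons. Pole, the catalytic subunit of polymerase epsilon and the lowest of these genes in wild type, had 25.2, 26.2 and 27.4 RPKM, against 27.2 RPKM in wild type. The 3 delta members thus lay lower than the epsilon members Pole, at 0.04 to -0.11, and Pole2, at -0.19 to -0.25. This order did not extend to subunits outside the 37: Pold4, a small delta subunit, was at -0.18, -0.10 and 0.12, and the epsilon subunit Pole4 lay lower than Pold1 and Pold3.

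The ligation genes were all below wild type in all 3 lines, as were 53.7% of all genes tested. Lig3, the ligase that works with XRCC1, had 15.7, 16.2 and 17.2 RPKM in Rad23b-null, knockdown 1 and knockdown 2 cells, against 32.2 RPKM in wild type, with log2 ratios of -0.99, -0.91 and -0.85. Lig1, the replicative ligase, had 105, 92.2 and 106 RPKM, against 143 RPKM in wild type, with log2 ratios of -0.44, -0.59 and -0.40. The scaffold Xrcc1 had 25.2, 24.2 and 26.6 RPKM, against 30.2 RPKM in wild type. Lig3 was thus nearer to 2-fold lower than its partner Xrcc1, at -0.25, -0.27 and -0.16.

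Pold2, Lig3 and Rpa1 had the 3 lowest ratios in Rad23b-null cells and knockdown 1, and in knockdown 2 only Gtf2h2 came between them. They are the 3 members on chromosome 11, and genes of that chromosome were lower as a whole. The median log2 ratio of chromosome 11 genes was -0.44, -0.45 and -0.44 in the Rad23b-null, knockdown 1 and knockdown 2 lines. The medians of the other 19 chromosomes ran from -0.23 to -0.05, from -0.21 to -0.07 and from -0.19 to -0.05. Of the chromosome 11 genes 77.6%, 78% and 78.9% were below wild type, against 61.5%, 62.5% and 61.2% of genes elsewhere. Among chromosome 11 genes of at least 5 RPKM, as these 3 members were, the median was lower, at -0.58, -0.56 and -0.56. Of those genes 88%, 86.1% and 87.7% were below wild type. Against that median the 3 members lay less far down than the next values show. Set against the median of their own chromosome over genes of at least 1 RPKM, Pold2 was at -0.64, -0.41 and -0.54, Lig3 at -0.55, -0.46 and -0.41, and Rpa1 at -0.30, -0.26 and -0.23. On that scale 2, 0 and 0 members were at least 1.5-fold lower, against 9.03%, 6.37% and 7.38% of genes, and 2, 0 and 1 higher, against 15.3%, 12.9% and 13.2%. The median of the members was then -0.16, -0.10 and -0.19. The cause of the chromosome 11 shift was not tested. Gene copy number in these lines was not measured here.

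**Figure D3:**
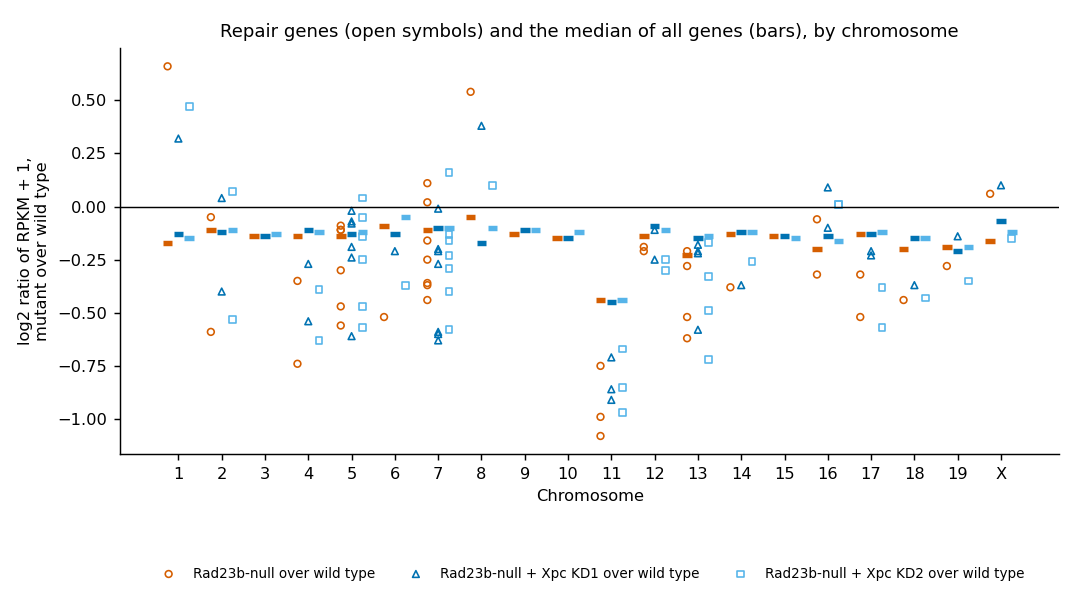
Log2 ratio of RPKM + 1 to wild type by chromosome, for each repair gene (open symbols) and as the median of all genes of the chromosome (bars), in Rad23b-null (circles), knockdown 1 (triangles) and knockdown 2 (squares) cells. The bars of chromosome 11 lie at -0.45 to -0.44 and its 3 repair genes lie below them, while the other bars lie between -0.23 and -0.05.

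The members differed little between the Xpc knockdown lines and Rad23b-null cells, as did most genes. None of the 37 was 1.5-fold apart between knockdown 1 and Rad23b-null cells (5.54% of genes), between knockdown 2 and Rad23b-null cells (4.51%) or between the hairpins (4.91%), and so none was 2-fold apart (1.93%, 1.86% and 1.82% of genes). Among genes of at least 5 RPKM the shares 1.5-fold apart were 5.01%, 3.95% and 4.28%, so few members would be so at that rate. The median difference was 0.04 for knockdown 1 minus Rad23b-null and 0.05 for knockdown 2 minus Rad23b-null, and 0.03 and 0.02 over all genes. Ercc4 was the highest of both, 0.41 and 0.32 above its Rad23b-null ratio. The lowest were Ercc5, at -0.34 in knockdown 1, and Cul4a, at -0.45 in knockdown 2, both of which had been high in Rad23b-null cells. Both differences subtract the same Rad23b-null library, so a low or high value there raises or lowers both together. No reversal by Xpc knockdown is read from them. The hairpins set the scale for such differences: the middle 68% of members lay between -0.19 and 0.11 for knockdown 2 minus knockdown 1, and that of all genes between -0.21 and 0.21. The extremes between hairpins were Rfc5, a loader subunit, at -0.37 and Pold3 at 0.30, about as large as the Ercc4 and Ercc5 differences and smaller than that of Cul4a.

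Of 14 symbols listed for other genes of the pathway, counting an alternative name of Uvssa, 12 matched and 11 passed the minimum, Rad23b and Xpc among them. Beside those 2, the one 2-fold apart was Pole4, a histone-fold subunit of polymerase epsilon, in knockdown 2. It had 60.9, 53.6 and 40.9 RPKM in Rad23b-null, knockdown 1 and knockdown 2 cells, against 99.1 RPKM in wild type, with log2 ratios of -0.69, -0.84 and -1.23. Rbx1, the RING subunit of the CUL4 ligase, had ratios of -0.72, -0.39 and -0.64, and the flap nuclease Fen1 of -0.52, -0.47 and -0.52. The centrin of the XPC complex, Cetn2, was at -0.52, -0.18 and -0.23. Polk, a gap-filling polymerase, was the one of the 11 above wild type in every line, at 0.39, 0.10 and 0.39.

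RAD23B regions were common at the members, as at other active genes. A region shared by the 2 wild-type replicates lay in or within 5 kb of 33 of the 37 loci (89.2%, exact binomial 95% interval 74.6 to 97%), against 57.5% of all genes and 83.5% of genes with a wild-type level of at least 1 RPKM. The interval covers counting error and no more. Within 1 kb of the start a shared region lay at 28 members (75.7%, interval 58.8 to 88.2%), against 34.2% of all genes and 63.3% of those with at least 1 RPKM. In 13 members the listed coordinates are those of a locus merged with neighbours, so that a region or a start there may belong to another gene. Over the 24 with coordinates of their own, 20 (83.3%) held a region and 18 (75%) one at the start, close to the 85.3% and 75.2% of protein-coding genes with coordinates of their own and at least 1 RPKM. The authors' fold is the ratio of RAD23B to IgG reads after scaling. At the 18 starts its median was 1.74 in replicate 1 and 1.83 in replicate 2, and at the starts of those other protein-coding genes 1.79 and 1.87.

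**Figure D4:**
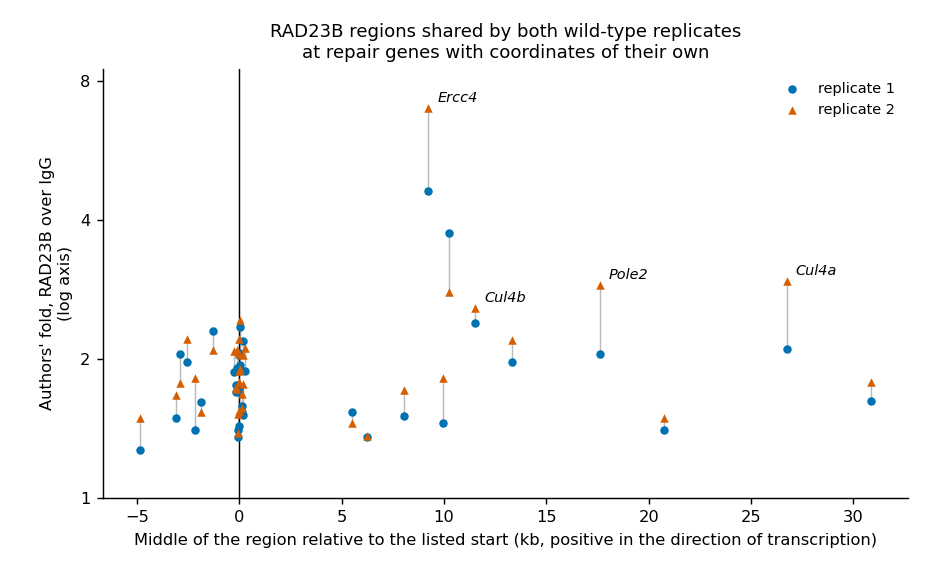
Authors' fold of RAD23B over IgG (log axis) at each shared region of the repair genes with coordinates of their own, in replicate 1 (circles) and replicate 2 (triangles) joined by a line, against the distance of its middle from the listed start in kb. Regions gather at the start with folds up to 2.43, and the highest pair, in the body of Ercc4, reaches 4.62 and 7.

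At the starts the folds were low and even. The 28 start regions ran from 1.35 to 2.34 in replicate 1 and from 1.38 to 2.43 in replicate 2. At Pold2 the start region (mm9 chr11:5777861-5778735) had 301 reads of RAD23B and 166 of IgG in replicate 1, and 151 and 80 in replicate 2, with folds of 1.72 and 1.88. At Rpa1 the start region had folds of 1.75 and 1.74, at Pcna of 1.88 and 2.11, and at Ercc5 of 1.53 and 1.56. Of the 5 members lower by at least 0.5 on the log2 scale in all 3 mutant lines, Pold2, Rpa1 and Lig3 had a shared start region. That of Lig3, on a merged locus, had folds of 1.73 and 2.07. Xpa and Gtf2h2 had no shared start region. A link between start regions and the RNA ratios was not tested. All 3 RPA genes and all 5 polymerase genes had a shared start region, as had 7 of 10 TFIIH, 4 of 6 recognition, 3 of 4 incision, 4 of 6 clamp and 2 of 3 ligation genes.

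The strongest regions lay away from the starts. In the body of Ercc4 a region 9011 bases past the start (mm9 chr16:13118787-13119216) had 149 reads of RAD23B and 30 of IgG in replicate 1, and 48 and 6 in replicate 2, with folds of 4.62 and 7, and ranked at the 97.7th percentile of shared regions by its fold in replicate 1. A neighbouring region in the same gene had folds of 3.75 and 2.79, while the Ercc4 start had 1.51 and 1.76. In the merged locus that lists Xpa with 5 other genes, the single shared region had folds of 3.4 and 4.54. Regions with folds of 3.73 and 3.52 in the locus merged from Rfc4 and Eif4a2, and of 3.62 and 2.72 in that of Rfc5 and Wsb2, lay beyond the listed far end. Over all 73 distinct shared regions at the members, 28 were at starts, 26 in bodies, 11 upstream and 8 downstream. Their median fold was 1.80 and 1.88, against 1.95 and 2.13 over all 38822 shared regions, and 23.3% had a fold of at least 2 in both replicates, against 43%.

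Ercc8, Gtf2h2, Rfc2 and Rfc3 had no shared region. Each nonetheless had a region over its start in replicate 1, with folds of 1.27, 1.44, 1.43 and 1.55 and between 125 and 224 RAD23B reads. Replicate 1 listed 59768 regions from 109 M reads and replicate 2 42364 from 62.5 M reads. The regions at these 4 starts were thus listed in the deeper library only, and the part of depth in this was not tested. All 4 had log2 ratios below 0 in all 3 mutant lines, as had 75.7% of members and 53.7% of genes. Rfc2 was near wild type, at -0.11, -0.07 and -0.05. A link between the lack of a shared region and the RNA ratios was not tested.

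In Xpc-/- cells 828 regions were listed, and 3 members held one within 5 kb (8.11%, exact binomial 95% interval 1.7 to 21.9%), against 3.49% of all genes and 5.66% of those with at least 1 RPKM. Cul4a held 2, in its body, and neither overlapped a shared wild-type region. Gtf2h2 held 1 over its start, with 61 reads in the column headed RAD23B and 121 in the column headed IgG. Rfc4 held 1, which overlapped a shared wild-type region, with 35 and 82 reads under the same headings. In all 4 the column headed IgG held the more reads, and the authors' fold of 1.38 to 1.89 followed that column over the other. A swap of the headings and a call made in the IgG library cannot be told apart, so no enrichment of RAD23B is read from them. The ChIP lines were not the lines in which RNA was measured.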

How the data were processed

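RAD23B regions were called against IgG by the authors in mm9 coordinates, and the submitters' processing notes list Partek. How reads were aligned, and the settings of the calls, is not given in the sources used here. Per the file headers, each list holds read counts of RAD23B and IgG in the region, a scaled fold (the authors' ratio), a p-value, the maximum coverage signal and that maximum scaled to library reads (RPM), whose quotient gave the library reads. The headings of the replicate 2 list name the replicate 1 libraries.

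The submitters' processing notes also list Cuffdiff, Cufflinks 2.0.2 and TopHat2 2.0.6, with no role or order. RPKM values were deposited as 1 table for each mutant beside wild type, with the authors' ratio and p-value. The tables give no read totals, so the depth of each RNA library is not known from them. They were scaled separately: the printed wild-type values, from the Rad23b-null table, were 1.026 and 1.017 times those in the knockdown 1 and knockdown 2 tables, and each ratio used its own table. Exactly 1 stood in 13841 wild-type values and in 0 values of members, and was read as 0. Of 36658 lines 72, with 0.00144% of the wild-type RPKM, carry no gene name and were dropped. Members on merged coordinates have RPKM values of their own. Ratios used a pseudocount of 1 RPKM, which understates changes of low genes, and genes with at least 1 RPKM in either library. Regions counted as shared when they overlapped by 1 bp.

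The members, gene lists and tests were chosen with earlier results of these data known. Members were named with values when at least 0.5 from 0 on the log2 scale in the same direction in all 3 comparisons, 2-fold apart in any, highest or lowest of their role group in wild type, without a shared region or with 1 of the 3 highest folds of one; others named are said to be chosen later or are given by range. Python 3.11.15 with pandas 2.3.3, numpy 2.4.6, scipy 1.17.1 and matplotlib 3.10.9 was used, and the calls were tested on simulated data. Region sequences were not used here, since no mm9 genome was at hand, and RefSeq promoters on GRCm38.p6 were kept apart from mm9 coordinates.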

Additional observations from a re-analysis of the deposited data

How the results depend on the processing

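Centring the ratios on the median of all genes left 0 members 2-fold apart in Rad23b-null cells and moved their median to -0.16, and centring on each chromosome's own median, chosen after seeing the data, gave 0 and -0.16. Without the members on chromosome 11, also chosen after seeing the data, the count was 0, and with a pseudocount of 0.1 RPKM it was 2. A 1.5-fold call gave 7, 7 and 5 members in Rad23b-null, knockdown 1 and knockdown 2 cells. Requiring an authors' fold of 2 in both lists left 12 members with a shared region and 4 with one at the start. Of the shared regions at members 23.3% had that fold in both lists, against 43% of all shared regions. Of the 24 members with coordinates of their own 20 had a region (83.3%, against 85.3% of such protein-coding genes of at least 1 RPKM). Within 20 kb, 5 members held an Xpc-null region. Using 1 replicate's list alone gave 33 to 37 members with a region and 28 to 35 with one at the start. The shares of all genes under the fold, 20 kb and single-list settings are not given here. No trait of the members is read from those counts. For single members, a pseudocount of 0.1 RPKM moved 0 of 111 ratios by more than the hairpin spread of 0.16, and centring on the own chromosome moved 24 of 111. Centring on all genes shifts every ratio of a comparison alike, by 0.16, 0.14 and 0.14, which leaves 26, 25 and 27 members below 0. The other settings only choose genes and cannot change a ratio. No paired analysis was possible because each RNA group held 1 library and the region counts came from no test. One library per group limits every RNA difference. Only regions listed in both ChIP replicates, of which replicate 2 had the lower depth, count as shared.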

Other observations

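Of 23 symbols listed for DNA replication genes outside the members, counting an alternative name of Cdc45, 22 matched. Their median log2 ratios were -0.40, -0.30 and -0.35 in Rad23b-null, knockdown 1 and knockdown 2 cells, against -0.24, -0.20 and -0.21 for genes of at least 5 RPKM. In the 3 lines 20, 21 and 21 of them were below wild type, against 70.9%, 71.3% and 70.2% of those genes. Gins1, a subunit of the replicative helicase complex, had 18.2, 27.1 and 30.0 RPKM in the 3 lines, against 41.3 RPKM in wild type, and Tyms, which makes thymidylate, had 48.4, 88.9 and 65.1 RPKM, against 105 RPKM in wild type. Both were 2-fold lower in Rad23b-null cells (2 of 22, against 4.61% of all genes), with log2 ratios of -1.14 and -1.10, and neither in the knockdowns. These genes were named after their values were seen.

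The 6 mismatch repair genes, which act on replication errors, had medians of -0.37, -0.13 and -0.28, and 5 of them were below wild type in each line. Pms2 was the exception, with 32.0, 22.3 and 28.6 RPKM in Rad23b-null, knockdown 1 and knockdown 2 cells, against 21.0 RPKM in wild type. Genes of at least 5 RPKM had medians of -0.24, -0.20 and -0.21, and 70.9%, 71.3% and 70.2% of them were below wild type.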
